A study of Mus musculus with 8 samples.

Results

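P2rx7, Art2b, Cd38, Entpd1, Nt5e and Adora2a encode the cell-surface proteins through which mouse lymphocytes sense and clear extracellular ATP, NAD and adenosine. They were found by symbol among the 52661 genes of the transcript tables, all 6 of 6 were found, and their estimated reads and TPM (a length-corrected level whose sum is the same in all libraries) were summed over their transcripts. All 6 passed the filter on low counts. The cells were CD45-sorted intraepithelial lymphocytes (IELs) of C57BL/6 mice, the immune cells lying between the epithelial cells of the gut. Both groups were kept for 24 h at body temperature in RPMI medium with 10% serum. The 4 osteopontin libraries came from cells that also received osteopontin at 2 µg/ml, and the 4 null libraries from cells that did not. Both groups use the library names 1, 2, A and B, no genetic change is stated for either, and the labels give no animal age. No label ties a library to an animal or a culture of its own, so the p-values here speak only to library-to-library spread, part of which may be technical. Values per library are given in the order 1, 2, A, B.

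As background, P2X7 is an ATP-gated cation channel. On mouse T cells it can also be opened through ADP-ribosylation by ARTC2.2, the product of Art2b, which uses extracellular NAD as its substrate. CD38, an NAD-consuming ectoenzyme, limits that substrate. CD39, encoded by Entpd1, turns ATP and ADP into AMP, CD73, encoded by Nt5e, turns AMP into adenosine, and the adenosine receptor encoded by Adora2a answers by raising cAMP. Tissue-resident T cells of the gut are known for P2X7 and ARTC2.2 on their surface, and strong activation of the channel can kill them.

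The libraries held 49108857 to 71399664 estimated reads after rounding. The summed level of 12 T cell and IEL markers (Ptprc, Cd3e, Cd8a, Itgae and others) ranged from 7022 to 7834 CPM (reads set against the library's total, on a fixed scale), and every one of the 12 had reads. Other cells were present too. The summed level of 8 B cell markers was 332 CPM in osteopontin library B against 634 to 1036 CPM in the other 7. That of 8 fibroblast markers was 322 and 176 CPM in null libraries 1 and A against 6.74 to 25.5 CPM elsewhere. The sum of 8 endothelial markers was 133 CPM in osteopontin library B and 134 and 136 CPM in null libraries 2 and B. It was 58.7 to 84.5 CPM in the other 5. Apart from cell types, 5 inducible stress genes summed to 3.56 to 6.70 CPM in osteopontin libraries 1, 2 and A. In the other 5 libraries they summed to 95.2 to 117 CPM. The part of these cells and of the stress genes in the values that follow was not tested.

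On the length-corrected scale the 6 genes covered a wide range of levels. Nt5e stood highest at 124 ± 9.41 TPM (SD, n = 8 libraries), rank 1363 of the 52661 genes, followed by Art2b at 75.0 ± 5.04 TPM, Adora2a at 63.7 ± 6.62 TPM, P2rx7 at 61.1 ± 6.81 TPM, Cd38 at 34.8 ± 2.94 TPM and Entpd1 at 17.8 ± 4.23 TPM. Nt5e exceeded Art2b, P2rx7 exceeded Cd38, and Cd38 exceeded Entpd1 in all 8 libraries with no overlap of their ranges. The ranges of Art2b and Adora2a overlapped (Art2b was the higher in 7 libraries), and those of Adora2a and P2rx7 overlapped as well (Adora2a was the higher in 5). The means of Adora2a and P2rx7 differed by less than the SD of either, and no test was made between neighbours in this order. The place of P2rx7 rests on how its transcripts are classed: with only the transcripts that the tables class as protein-coding, its level was 29.2 ± 3.06 TPM, below the 33.1 ± 3.48 TPM of Cd38. Short transcripts weigh on the places of Art2b and Adora2a. Art2b-201 (870 bases) held 49.0% of its gene's TPM but 20.1% of its reads, and Adora2a-203 (538 bases) 26.0% and 5.38%. The longest transcripts of these genes, Art2b-202 and Adora2a-201, stood at 37.9 and 40.7 TPM, against 33.1 TPM for Cd38-201.

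**Figure D1:**
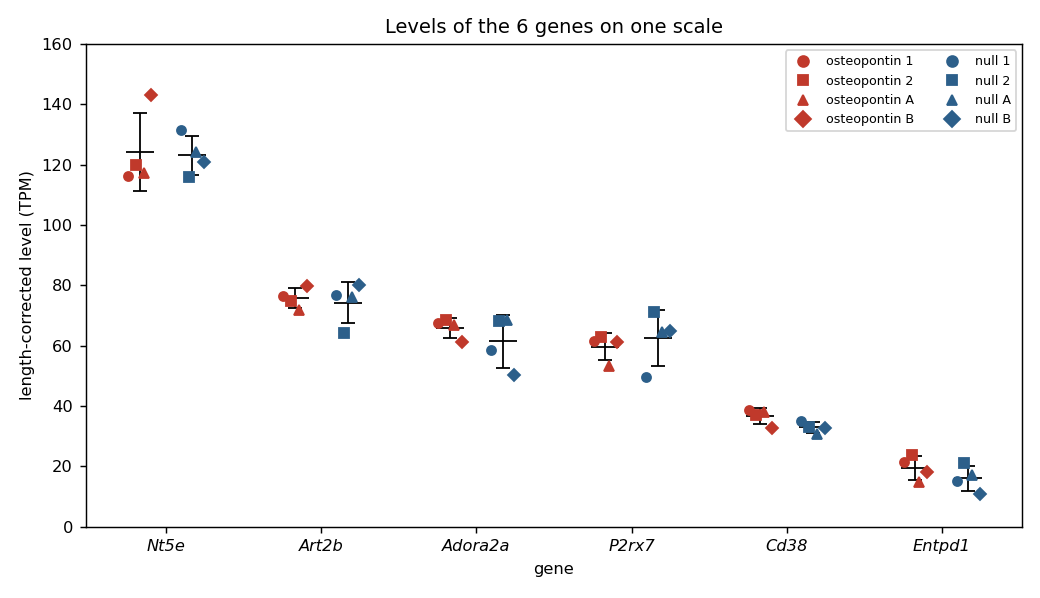
Length-corrected level (TPM, y axis) of the 6 genes (x axis, by falling mean) in each of the 4 osteopontin (red) and 4 null (blue) libraries, with marker shapes for the library names and black bars for the group mean and SD. Nt5e lies above and Entpd1 below the other genes in every library, while Art2b, Adora2a and P2rx7 share part of their ranges.

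None of the 6 genes differed between osteopontin and null libraries by edgeR's quasi-likelihood test with Benjamini-Hochberg adjustment over all 18631 tested genes, and the CPM ranges of the groups overlapped for all 6. Both counts are to be read against small backgrounds. The test called 0 of the 18631 genes (0%), while 732 genes (3.93%) had an unadjusted p under 0.05, and the groups did not overlap for 648 genes (3.48%). By DESeq2 41 genes (0.22%) passed, and by limma voom 0 (0%). Leaving out osteopontin library B raised edgeR's count to 37 genes, and the fits lacking null library 1, null library 2 or osteopontin library 2 gave 1 gene each. No member was among the genes called in any of these fits. The 6 fitted log2 fold changes (osteopontin over null) lay between -0.04 and 0.16, with 5 above 0 and a median of 0.02, against a median of 0.00 over all tested genes. In bulk RNA, fewer cells of a type and less RNA per cell cannot be told apart.

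**Figure D2:**
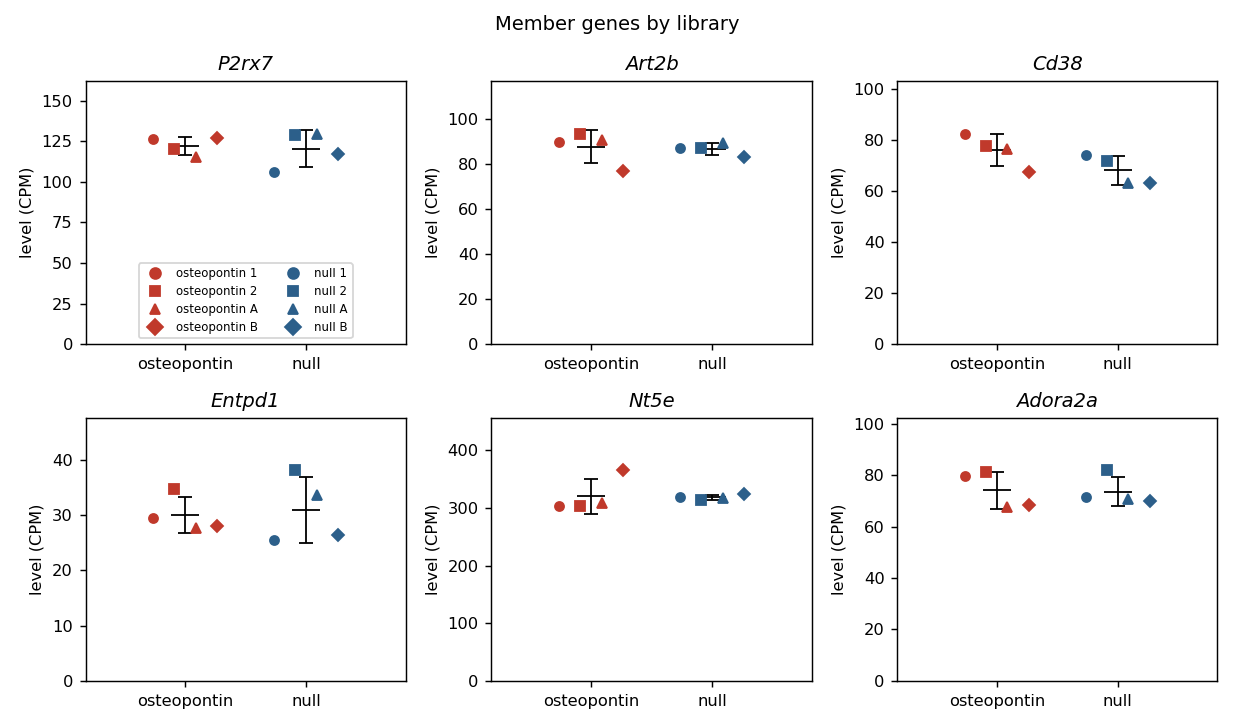
Level (CPM on scaled library totals, y axis from 0) of each gene in the 4 osteopontin (red) and 4 null (blue) libraries (x axis), with black bars for the group mean and SD. The groups overlap in every panel, and osteopontin library B holds the highest Nt5e value, 365 CPM, and the lowest Art2b value, 76.7 CPM.

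The ATP sensor came first. P2rx7 lies on chromosome 5 (122643911 to 122691432, plus strand, GRCm38) and encodes the P2X7 channel. Its level was 126, 120.0, 115 and 127 CPM with osteopontin and 106, 129, 129.7 and 117 CPM without. The osteopontin values lay inside the null range. In edgeR its log2 fold change was 0.02 ± 0.08 (SE), and the 95% interval of the fold ran from 0.906 to 1.13 (adjusted p = 0.999915, edgeR).

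P2rx7 is annotated with 8 transcripts, and most of its estimated abundance fell on a pair of them with different first exons. P2rx7-203 (13 exons) begins at position 122643911. P2rx7-208 (also 13 exons) begins at position 122650424, in the first intron of P2rx7-203, and is classed as a processed transcript in the tables and as protein-coding in GENCODE M21. The coding part of each first exon opens with ATG and joins the same second exon in the same reading frame. A P2X7 variant with an alternative first exon, P2X7k, is known in mouse T cells as the form more sensitive to ARTC2. Whether P2rx7-208 encodes that form was not checked against a protein sequence here. The coding part of each first exon is shown because it is what separates the transcripts (GRCm38 chr5:122644074-122644198 and chr5:122650424-122650539, plus strand), with the first 24 bases of the shared second exon, from position 122652727, in capitals.
P2rx7-203: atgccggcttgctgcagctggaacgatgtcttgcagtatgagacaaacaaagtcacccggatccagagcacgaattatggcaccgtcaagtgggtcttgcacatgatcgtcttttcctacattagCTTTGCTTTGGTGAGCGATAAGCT
P2rx7-208: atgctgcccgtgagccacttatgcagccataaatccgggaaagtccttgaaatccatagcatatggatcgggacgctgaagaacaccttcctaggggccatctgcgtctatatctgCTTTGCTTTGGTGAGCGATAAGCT

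P2rx7-203 was estimated at 25.8, 24.1, 24.6 and 28.1 TPM with osteopontin and at 23.7, 24.7, 27.7 and 18.2 TPM without. P2rx7-208 was estimated at 21.1, 25.0, 15.6 and 22.6 TPM and at 16.7, 21.7, 21.6 and 23.7 TPM. P2rx7-208 thus made up 44.8 ± 4.94% of the pair with osteopontin and 47.1 ± 6.67% without (SD, n = 4 each), and its share ranged from 38.8 to 56.5% over the 8 libraries. The highest share was in null library B, where P2rx7-203 was also at its lowest. Neither transcript differed between the groups: the log2 fold change was 0.07 (95% interval -0.23 to 0.37) for P2rx7-203 and -0.03 (-0.47 to 0.40) for P2rx7-208, both with an adjusted p of 0.999991 by edgeR over 50650 tested transcripts. Of the 31 annotated transcripts of the 6 genes 21 were tested. By edgeR 0 of the 21 passed, as did 0 of all tested transcripts (0%; 0.355% by DESeq2), 0 had an unadjusted p under 0.05 (1.98% of all), and for 0 the groups did not overlap (3.01% of all).

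These transcript values are estimates that rest on few distinguishing bases. P2rx7-208 holds 115 runs of 31 bases that occur in no other annotated transcript, and P2rx7-203 holds 785. P2rx7-208 ends at position 122681373 and P2rx7-203 at 122684289, so reads from the last stretch of the gene cannot be assigned to P2rx7-208 as annotated. P2rx7-205, a retained intron within that stretch, has 0 such runs of its own, and its estimate went from 3.73 to 16.4 TPM over the libraries. By estimated reads in place of TPM, P2rx7-203 took 67.5% and P2rx7-208 20.0% of the gene, against 40.7% and 34.3% by TPM.

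The 250 bases before the start that RefSeq (GRCm38.p6) gives for each form are shown because the forms start at separate places. Both strands were searched for GGGCGG, the core of a GC box, and for CCAAT, a box of the same name. The search also took in TATAAA, the TATA box, as well as TGTGGT, the core of the site read by Runx factors. Of 32851 mouse promoter windows of this length, 12.4% held TATAAA, 14.05% TGTGGT, 32.7% GGGCGG and 33.8% CCAAT on either strand. Matches are in capitals, and none overlapped another. The upstream window (chr5:122643677-122643926, plus strand) held GGGCGG at 2 places and none of the other 3 sequences. The downstream window (chr5:122650133-122650382) held none of the searched sequences. They held 6 and 4 CpG dinucleotides, against a median of 6 over all windows.
P2rx7 upstream start: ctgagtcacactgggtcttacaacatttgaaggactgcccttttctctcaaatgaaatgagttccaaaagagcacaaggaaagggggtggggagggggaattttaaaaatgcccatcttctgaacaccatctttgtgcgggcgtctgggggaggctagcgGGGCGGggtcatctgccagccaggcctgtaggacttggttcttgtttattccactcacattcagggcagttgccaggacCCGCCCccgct
P2rx7 downstream start: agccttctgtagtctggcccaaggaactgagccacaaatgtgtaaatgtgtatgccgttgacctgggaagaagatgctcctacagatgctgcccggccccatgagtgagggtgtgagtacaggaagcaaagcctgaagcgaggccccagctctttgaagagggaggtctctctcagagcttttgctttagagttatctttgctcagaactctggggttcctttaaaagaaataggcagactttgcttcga

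Among the other ATP-gated channels, P2rx4 was the main companion of P2rx7. P2rx4 stood at 59.3 ± 19.6 TPM with osteopontin and 49.8 ± 6.17 TPM without (SD, n = 4 each), and its log2 fold change was 0.11 (95% interval -0.16 to 0.37). P2rx7 made up 40.1 to 62.0% of the summed TPM of the P2X family, with the lowest share in osteopontin library B and the highest in null library 2. P2rx5 stood at 2.45 ± 1.38 and 2.84 ± 1.26 TPM. Of 8 matched genes with names of P2Y receptors, which are G protein-coupled, P2ry10 was the most abundant, at 75.0 ± 5.21 and 77.7 ± 5.30 TPM. The next was P2ry14, at 3.74 ± 2.58 and 5.98 ± 4.43 TPM. These genes were taken by name, and whether the product of P2ry10 senses nucleotides was not tested.

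Art2b, the NAD-using enzyme that can modify P2X7, lies on the minus strand of chromosome 7 (101576970 to 101585600). Its level was 89.6, 93.4, 90.5 and 76.7 CPM with osteopontin and 87.0, 86.9, 89.2 and 83.0 CPM without. Library B was the lowest of each group. This gave a log2 fold change of 0.02 ± 0.08 (SE), and the 95% interval of the fold ran from 0.898 to 1.14 (adjusted p = 0.999915, edgeR).

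On the TPM scale the order of the libraries was different for Art2b. Osteopontin library B, lowest in CPM, had 79.7 TPM, the second highest of the 8 libraries after null library B with 80.0 TPM. Within the gene, in library B of the osteopontin group 48.5 TPM were assigned to Art2b-201, which is 870 bases long, and 31.1 TPM to Art2b-202, which is 2819 bases long. Over the 8 libraries the estimates ranged from 24.3 to 48.5 TPM for Art2b-201 and from 31.1 to 42.2 TPM for Art2b-202. The short transcript has 36 runs of 31 bases of its own, so this split is uncertain.

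Art2b also has a close neighbour, Art2a-ps, annotated as a polymorphic pseudogene on the same strand. Their coding sequences were identical at 86.9% of aligned positions, and 25.8% of the 31-base runs of Art2b-201 also occurred in another gene. The first 150 coding bases of both are shown because reads from such stretches can only be told apart at few places. Capitals mark the 7 bases that differ (GRCm38, minus strand, coding spans 101578863 to 101581161 and 101552779 to 101555802 of chromosome 7).
Art2b-202: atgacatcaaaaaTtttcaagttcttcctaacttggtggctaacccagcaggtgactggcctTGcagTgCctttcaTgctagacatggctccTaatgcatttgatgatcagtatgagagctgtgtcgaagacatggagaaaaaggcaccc
Art2a-ps-201: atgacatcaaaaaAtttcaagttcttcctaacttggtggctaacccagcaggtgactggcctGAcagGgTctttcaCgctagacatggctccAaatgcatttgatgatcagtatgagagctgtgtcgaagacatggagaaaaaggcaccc

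Art2a-ps had few reads. It was given 86, 56, 121 and 26 estimated reads with osteopontin and 40, 21, 16 and 0 without, where the 0 allows up to 3 reads or 0.0458 CPM by counting error alone. On the TPM scale it ranged from 0 to 2.80, and its log2 fold change was 1.89 with a 95% interval from -0.67 to 4.45 (unadjusted p = 0.136, edgeR). Art2b made up 78.6 to 86.0% of the summed TPM of the ADP-ribosyltransferase family counted here (Art1, Art2a-ps, Art2b, Art3, Art4 and Art5). Art4 was the next in this family, at 9.98 ± 1.48 TPM with osteopontin and 10.2 ± 0.762 TPM without (SD, n = 4 each). Adprh, a hydrolase that removes ADP-ribose from arginine and is not part of that sum, stood at 65.1 ± 14.4 TPM with osteopontin and 69.8 ± 2.00 TPM without (SD, n = 4 each).

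**Figure D3:**
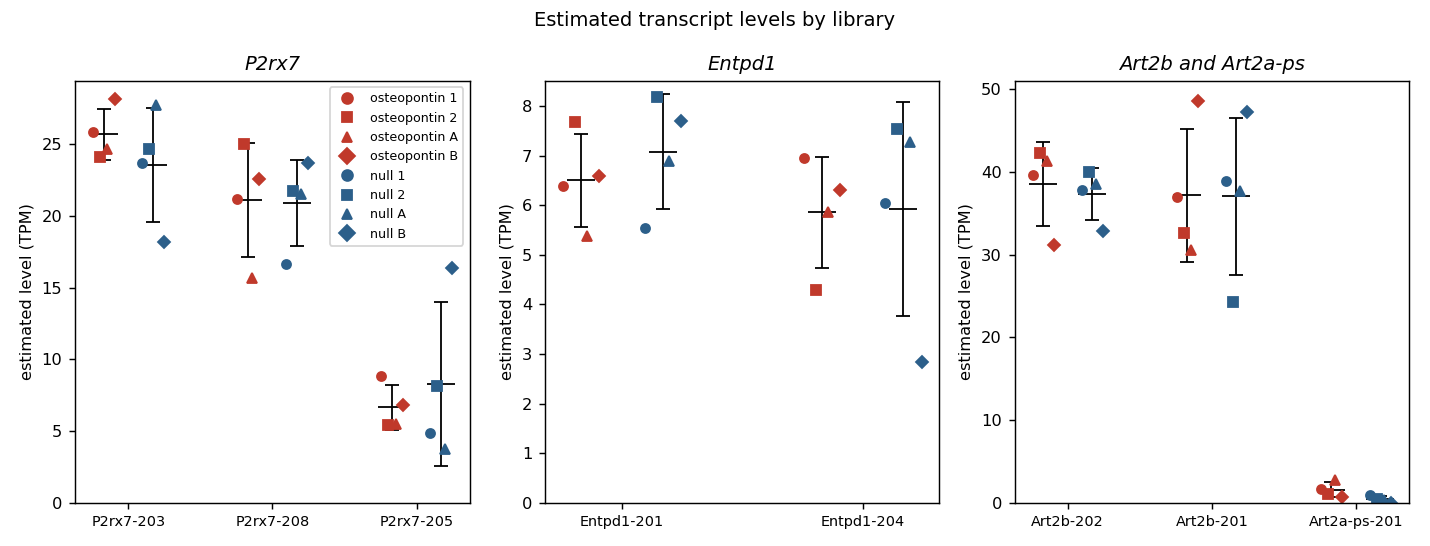
Estimated TPM (y axis) of the main transcripts of P2rx7 and Entpd1 and of the transcripts of Art2b and Art2a-ps (x axis) in each osteopontin (red) and null (blue) library, with black bars for the group mean and SD. The groups overlap for every transcript shown, and the library B points of both groups show a high Art2b-201 with a low Art2b-202.

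Cd38, whose product consumes NAD, had the largest fitted change of the 6. It lies on chromosome 5 (43868553 to 43912375, plus strand). Its level was 82.5, 77.6, 76.6 and 67.5 CPM with osteopontin and 74.2, 71.9, 63.1 and 63.2 CPM without. The upper 3 values were osteopontin libraries, but osteopontin library B lay below null libraries 1 and 2. The fitted log2 change was 0.16 ± 0.09 (SE), and the 95% interval of the fold ran from 0.975 to 1.28 (unadjusted p = 0.103, adjusted p = 0.999915, edgeR). Cd38-201, its full-length transcript, carried 98.8% of the gene's estimated reads. CD38 also occurs on B and plasma cells. The B cell marker sum was 961, 634, 754 and 332 CPM with osteopontin and 928, 736, 889 and 1036 CPM without. The summed level of 5 plasma cell markers was 3144, 5838, 6990 and 3216 CPM with osteopontin and 3810, 5628, 7815 and 2341 CPM without. The part of B and plasma cells in the Cd38 values was not tested.

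The other 13 tested genes of NAD use and synthesis did not pass the test either. Parp1, a nuclear NAD-consuming polymerase, stood at 154, 138, 126 and 102 CPM with osteopontin and 164, 141, 142 and 159 CPM without, a log2 fold change of -0.22 (95% interval -0.44 to 0.01). Nadk, the NAD kinase, stood at 69.6 ± 21.3 and 61.5 ± 5.74 TPM, and Sirt1, an NAD-dependent deacetylase, at 27.7 ± 2.93 and 25.8 ± 1.73 TPM (SD, n = 4 each). Of the 14 tested genes of this list, Cd38 included, 8 had a fitted change above 0 and 6 below, with a median of 0.02.

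Entpd1, the ATP- and ADP-cleaving step, was the least abundant of the 6 and the most variable. It lies on chromosome 19 (40612366 to 40741602, plus strand). Its level was 29.6, 34.7, 27.7 and 28.1 CPM with osteopontin and 25.5, 38.1, 33.7 and 26.4 CPM without. The null values enclosed all the osteopontin values. The log2 fold change was -0.04 ± 0.15 (SE), and the 95% interval of the fold ran from 0.782 to 1.20 (adjusted p = 0.999915, edgeR). Its sign turned when transcript lengths entered the value: it was 0.30 on log2(TPM + 0.1) with limma and 0.25 with an effective-length offset in edgeR, neither passing the test.

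Entpd1 is annotated with 11 transcripts, and short ones with few reads added to its TPM. Entpd1-207, 245 bases long, was estimated at 4.76 TPM in osteopontin library 1, 22.1% of the gene's TPM there but 0.903% of its reads. The main transcripts were Entpd1-201, with 63.3% of the reads, and Entpd1-204, with 30.0%, and they again differ in the first exon, which in both runs in frame into the same second exon. The coding parts are shown for the same reason as for P2rx7 (GRCm38 chr19:40659885-40659900 and chr19:40612421-40612523), with the first 24 bases of the shared exon, from position 40711163, in capitals.
Entpd1-201: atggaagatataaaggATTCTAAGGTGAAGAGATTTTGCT
Entpd1-204: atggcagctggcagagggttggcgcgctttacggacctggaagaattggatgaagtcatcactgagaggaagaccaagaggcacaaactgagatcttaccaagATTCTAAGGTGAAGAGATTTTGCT

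Entpd1-201 was estimated at 6.38, 7.67, 5.38 and 6.59 TPM with osteopontin and at 5.55, 8.19, 6.89 and 7.69 TPM without. Entpd1-204 was estimated at 6.95, 4.30, 5.87 and 6.31 TPM and at 6.05, 7.53, 7.29 and 2.83 TPM. Null library B was the lowest for Entpd1-204 and the second highest for Entpd1-201. The share of Entpd1-204 in the pair was 47.3 ± 7.73% with osteopontin and 44.6 ± 11.9% without (SD, n = 4 each), with a range from 26.9 to 52.2%. Entpd1-204 has 26 runs of 31 bases of its own, and Entpd1-201 has 1833. The transcripts also differ at their ends: Entpd1-201 ends at position 40741602 and Entpd1-204 at 40739794. The share thus rests on reads from a short stretch of Entpd1-204 and on how well the last stretch of Entpd1-201 was covered.

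The windows before the 2 starts differed in composition. The upstream window, before Entpd1-204 (chr19:40612116-40612365, plus strand, RefSeq GRCm38.p6), held 18 CpG dinucleotides and 62.4% G and C. The downstream window, before Entpd1-201 (chr19:40659520-40659769), held 8 CpG dinucleotides and 47.2% G and C. CCAAT occurred at 2 places upstream and at 1 downstream (capitals), and the other 3 searched sequences at none.
Entpd1 upstream start: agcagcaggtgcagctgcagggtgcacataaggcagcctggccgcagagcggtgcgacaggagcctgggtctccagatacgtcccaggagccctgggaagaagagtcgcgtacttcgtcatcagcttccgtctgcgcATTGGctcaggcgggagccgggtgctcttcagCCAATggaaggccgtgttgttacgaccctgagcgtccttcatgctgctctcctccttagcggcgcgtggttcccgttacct
Entpd1 downstream start: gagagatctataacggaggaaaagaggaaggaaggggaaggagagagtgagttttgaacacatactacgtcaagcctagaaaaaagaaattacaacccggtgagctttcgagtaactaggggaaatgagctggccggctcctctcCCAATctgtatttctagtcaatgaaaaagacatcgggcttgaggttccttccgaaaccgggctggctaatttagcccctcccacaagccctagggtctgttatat

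Nt5e, the AMP-cleaving step, was the most abundant of the 6. It lies on chromosome 9 (88327197 to 88372092, plus strand). Its level was 303, 303, 309 and 365 CPM with osteopontin and 319.7, 313, 316 and 324 CPM without. Osteopontin library B stood above the other 7, and the other 3 osteopontin libraries stood below all 4 null libraries. In edgeR its log2 fold change was 0.01 ± 0.07 (SE), and the 95% interval of the fold ran from 0.910 to 1.11 (adjusted p = 0.999915, edgeR). Without osteopontin library B the fold change was -0.06 on the log2 scale, also not passing the test. Nt5e-201 carried 97.3% of the gene's reads.

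Nt5e was several times more abundant than Entpd1 in every library on the length-corrected scale. The ratio of Nt5e to Entpd1 TPM was 6.57 ± 1.56 with osteopontin and 8.17 ± 2.41 without (SD, n = 4 each), and the groups overlapped, with values from 5.05 to 7.95 and from 5.52 to 11.2. With protein-coding transcripts only, the ratio was 8.75 ± 0.85 and 8.51 ± 1.83. Of the other enzymes that cleave nucleotides, Acpp, an acid phosphatase that can also make adenosine from AMP, stood at 76.0 ± 11.1 and 64.4 ± 5.16 TPM, and Entpd5 at 58.5 ± 11.8 and 53.3 ± 4.49 TPM.

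Adora2a, the adenosine receptor, lies on chromosome 10 (75316877 to 75334784, plus strand). Its level was 79.7, 81.1, 67.5 and 68.5 CPM with osteopontin and 71.5, 81.9, 70.6 and 69.8 CPM without. The groups covered nearly the same range. This gave a log2 fold change of 0.01 ± 0.09 (SE), and the 95% interval of the fold ran from 0.881 to 1.16 (adjusted p = 0.999915, edgeR). Adora2a-201 carried 92.5% of the gene's reads and 64.4% of its TPM. The short Adora2a-203, of 538 bases, carried 5.38% of the reads and 26.0% of the TPM, and its estimate went from 7.67 to 28.8 TPM with 27 runs of 31 bases of its own.

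Adora2a made up 97.1 to 99.0% of the summed TPM of the 4 adenosine receptors. Adora3 was the only other receptor tested, and it was low: 1.70, 3.15, 2.59 and 1.36 CPM with osteopontin and 1.12, 0.96, 1.34 and 1.12 CPM without. It was the only 1 of 91 tested genes of the 10 lists of pathway genes whose groups did not overlap, against 3.48% of all tested genes. Its log2 fold change was 0.95 with a 95% interval from -0.25 to 2.16 (unadjusted p = 0.113, edgeR).

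**Figure D4:**
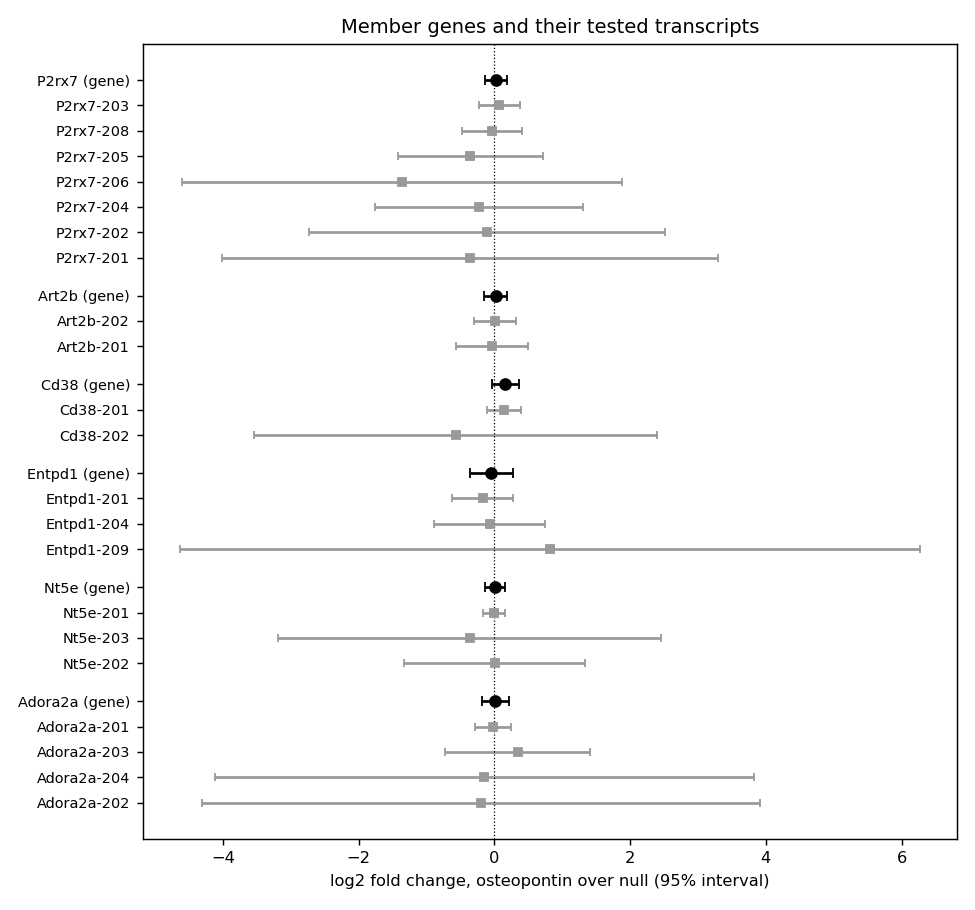
Log2 fold change of osteopontin over null (x axis) with its 95% interval for each gene (black) and each of its tested transcripts (grey), from edgeR. All intervals include 0, those of the genes lie between -0.36 and 0.36, and those of transcripts with few reads are far wider.

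The precision of the fold changes differed between the 6 genes. The unadjusted 95% interval of the log2 fold change reached 0.14 to either side for Nt5e, 0.16 for P2rx7, 0.17 for Art2b, 0.20 for Cd38 and for Adora2a, and 0.31 for Entpd1. The median over the 10615 tested genes with at least 5 CPM was 0.26. Of these genes, 92.1% had a wider interval than Nt5e and 38.9% a wider one than Entpd1.

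The surrounding pathway was covered by 10 lists, of which 91 of 106 matched genes were tested. Of the 91, 43 had a fitted change above 0 and 48 below, with a median of -0.03. Of all 18631 tested genes, 9335 were above 0 and 9296 below. None of the 91 passed edgeR's test, DESeq2 or limma voom. Unadjusted p-values under 0.05 occurred for 3 of the 91, against 3.93% of all tested genes. Slc29a1 and Ano6 were among them, and Ano6 is outside the naming rule and was chosen after its value was seen. Ano6, a lipid scramblase that can act after P2X7, had a log2 fold change of 0.16.

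For genes that act after P2X7 the median fold change was -0.12 on the log2 scale, with 9 of 12 below 0 (7 of 12 on log2(TPM + 0.1) with limma, and 7 of 12 without osteopontin library B). Casp1, the inflammasome protease, had a log2 fold change of -0.20 (95% interval -0.45 to 0.05), Gsdmd, the pore protein cut by it, one of -0.09 (-0.26 to 0.08), and Cd27, a co-stimulatory receptor shed after P2X7 opening, one of -0.03 (-0.17 to 0.11).

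Genes listed for ATP release had fitted changes below 0 for all 7 tested, with a median of -0.13, and none passed the test. Of all 18631 tested genes, 9296 were also below 0. The gene of this list with the lowest fitted change had only 0 to 50 estimated reads per library. Without null library B 5 of the 7 were below 0. Vdac1, a channel mainly of the mitochondrial outer membrane, stood at 64.1, 66.0, 59.3 and 61.6 CPM with osteopontin and 65.1, 69.5, 71.2 and 69.1 CPM without, a log2 fold change of -0.13 (95% interval -0.31 to 0.04). Panx1, the pannexin channel that works beside P2X7, had one of -0.05 (-0.34 to 0.25), and Slc17a9, which loads ATP into vesicles, one of -0.04 (-0.48 to 0.39). Both turned above 0 without 1 or another library, Panx1 to 0.06 without osteopontin library A and Slc17a9 to 0.16 without null library B.

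The handling of adenosine after its formation showed 5 genes above and 5 below 0. Slc29a1, an equilibrative nucleoside transporter, stood at 25.7, 20.1, 22.9 and 22.1 CPM with osteopontin and 17.2, 21.4, 16.2 and 14.9 CPM without. Null library 2 was the only null library inside the osteopontin range. The log2 fold change was 0.38 ± 0.16 (SE; unadjusted p = 0.0307, adjusted p = 0.999915, edgeR). Slc28a2, a concentrative nucleoside transporter, stood at 180 ± 39.6 TPM and 160.3 ± 15.4 TPM, and Dpp4, a surface peptidase that binds adenosine deaminase in humans, at 155 ± 10.9 and 142 ± 28.6 TPM.

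For the cAMP genes that act after this receptor the median was 0.01 on the log2 scale, with 11 of 17 above 0 (7 of 17 without osteopontin library B, and 7 of 17 with an effective-length offset). Gnas, the stimulatory G protein subunit, stood at 503 ± 30.4 TPM with osteopontin and 541 ± 25.8 TPM without (SD, n = 4 each), with a log2 fold change of -0.12 (95% interval -0.26 to 0.01). Adcy7, an adenylyl cyclase, stood at 233 ± 7.18 and 219 ± 8.01 TPM, with a log2 fold change of 0.07 (-0.04 to 0.18). Neither passed the test.

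**Figure D5:**
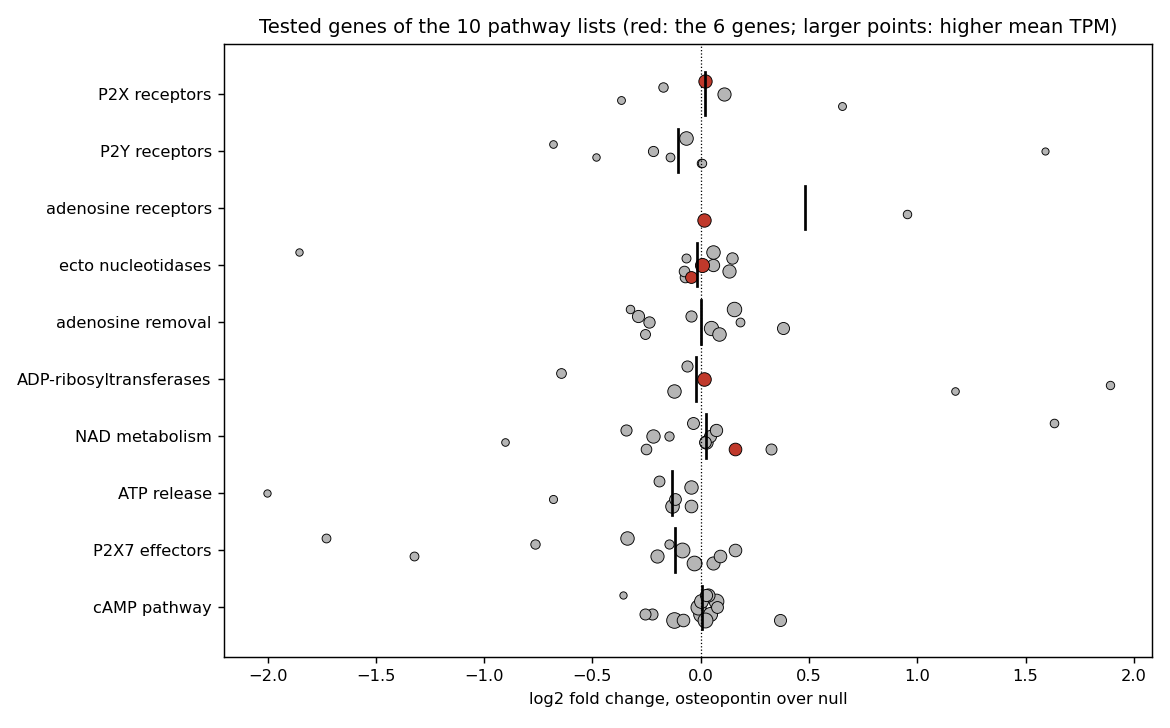
Fitted log2 fold change of osteopontin over null (x axis) for the 91 tested genes of the 10 lists (rows), with larger points for higher mean TPM, red for the 6 genes and a black line for each list's median. Most points far from 0 are small, and the red point farthest from 0 is Cd38 at 0.16.

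How the 6 genes went together across the 8 libraries depended on the scale. For Nt5e and Art2b Pearson's r of log2 CPM was -0.95, the value farthest from 0 among the 15 pairs, and -0.86 over 7 libraries without osteopontin library B, but on log2 TPM it was 0.55. For Entpd1 and Adora2a r was 0.70 on log2 CPM and 0.82 on log2 TPM, and for Entpd1 and P2rx7 it was 0.69 and 0.30. These values describe libraries that share 1 normalisation and differ in makeup, and no test was made of them. On log2 CPM, the tested genes with the most similar pattern were Rps6kb2 (r = 0.98), Utp20 (0.97) and Gps2 (0.96) for Nt5e, and Ssr1 (0.97), Slc27a1 (0.96) and Gadd45gip1 (0.96) for Art2b. For Adora2a they were Ctdspl2 (0.98), Haus6 (0.98) and Naaa (0.96), and for P2rx7 Enox2 (0.96), Zswim3 (0.95) and Gcsh (0.94). For Cd38 they were Pygb (0.93), Sorl1 (0.93) and Dhx15 (0.91), and for Entpd1 Cd93 (0.93), Atxn7l3b (0.91) and Mier2 (0.91). They were taken from 9610 candidates over 8 libraries, and by Spearman's rho only 4 of these 18 genes were still among the 3 highest.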

How the data were processed

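RNA of CD45-sorted intraepithelial lymphocytes was sequenced from stranded libraries, per the labels' protocols. The authors deposited 1 Salmon table per library, per the submitters' processing notes, with estimated counts per transcript, TPM values normalized by the authors to length and depth, and effective lengths (bases, per the file headers). Salmon's version, its transcript release and the genome build: not given in the sources used here. Of 133618 transcript IDs, 131233 had the same version in GENCODE M21 (GRCm38), which gave the positions. Estimated counts were summed per gene and rounded. Groups were compared with edgeR 4.0.16 (robust quasi-likelihood F test, two-sided, TMM scaling, filterByExpr with a minimum count of 10, group as the only term), called at a Benjamini-Hochberg adjusted p under 0.05. The same fit was run on transcripts, where the uncertainty of Salmon's assignment is not carried along. CPM of named genes use TMM-scaled totals, and marker sums use plain totals. DESeq2 1.42.0 and limma 3.58.1 were alternatives. The procedure was tested on simulated data. The changes put into them were larger than those fitted for the 6 genes, so that test does not speak to changes that small.

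The 6 genes and the lists were chosen with earlier results of these data known. The naming rule took the 6 genes, up to 5 genes per list with the highest mean TPM (at least 1), the gene with the smallest p of each list, and the 3 genes with the highest Pearson r to each member among tested genes with at least 5 CPM (prior count 2), leaving out predicted genes, pseudogenes and receptor segments. The values of 1 gene of the lists are not reported here, and it stays in the counts and medians of its list. The shares and ratios, the transcripts singled out, the sequences printed and searched, and the comparison of interval widths were chosen after values were seen. Each fold change has a standard error of its size over the square root of F. A count of 0 allows up to 3 reads by counting error alone.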

Additional observations from a re-analysis of the deposited data

Results flagged for a closer look

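With 4 libraries per group, a value was singled out when its gap to the nearest other library took up more of the group's range than Dixon's critical value for 4 samples allows, which chance does in about 1 of 20 groups. Of 48 group values examined, 6 met it, and some of these repeat the same gene on another scale. Nt5e in osteopontin library B was 365 CPM, against 309 CPM in the next library, and 143 TPM, against 120.0 TPM. Its main transcript Nt5e-201 was 142 TPM there, against 111 TPM. Adora2a in null library 2 was 81.9 CPM, the highest of its group, against 71.5 CPM in the next. The short Adora2a-203 was 28.8 TPM in osteopontin library A, against 16.4 TPM in the next library, and 7.67 TPM in null library B, against 15.9 TPM in the next. No cause was tested for any of these values.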

How the results depend on the processing

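The alternatives were other scalings, no filter, DESeq2, limma on counts and on TPM, the library name as a block, digit or letter naming as a covariate, effective lengths, protein-coding transcripts only, and leaving out libraries. No member and none of the 91 tested genes of the lists passed the test under any of them. The cell type markers and the genes named for a similar pattern were not checked in this way. Of 114 alternative fold changes of the 6 genes, 92 kept their sign and 22 reversed. Cd38 kept its sign throughout, from 0.12 to 0.21. On log2(TPM + 0.1) with limma the fold change became 0.30 for Entpd1, -0.056 for P2rx7, 0.062 for Slc17a9, 0.015 for Cd27 and 0.0034 for P2rx7-208. With the effective-length offset it became 0.25 for Entpd1, -0.025 for Nt5e, -0.10 for P2rx7, -0.0075 for Art2b and 0.00073 for Slc17a9, and with limma voom -0.0046 for Nt5e. Without null libraries 1 and A it became -0.033 for Adora2a and -0.012 for P2rx7. Leaving out 1 library at a time gave ranges of -0.13 to 0.071 for Entpd1, -0.063 to 0.031 for Nt5e, -0.033 to 0.069 for Adora2a, -0.040 to 0.057 for P2rx7, -0.017 to 0.073 for Art2b, -0.12 to 0.055 for Panx1, -0.20 to 0.16 for Slc17a9, -0.064 to 0.0014 for Cd27, -0.041 to 0.16 for P2rx7-203 and -0.14 to 0.089 for P2rx7-208. The cause of these reversals was not tested. The other 11 of 14 genes outside the 6 with a printed fold change kept their sign.

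The number of called genes was 4 without the filter and 41 with DESeq2, and 0 to 37 when 1 library was left out. The number of called transcripts was 180 with DESeq2 and 0 to 2 when 1 library was left out. List medians moved to 0.099 for nucleotidases, 0.12 for adenosine removal and 0.12 for ADP-ribosyltransferases on log2(TPM + 0.1), and to -0.074 for NAD genes without null libraries 1 and A. Leaving out 1 library gave medians from -0.041 to 0.12 for NAD genes and from -0.18 to -0.054 for P2X7 effectors. P2rx7 fell to 29.2 TPM with protein-coding transcripts only, since the tables do not class P2rx7-208 as coding. Same-named libraries were not taken as pairs: their deviations correlated at 0.0437 to 0.123, not all above 0.1, although 4 of 4 osteopontin and 3 of 4 null libraries correlated best with their own name. With the name as a replicate block edgeR called 0 genes, and the fold change was 0.16 for Cd38 and -0.03 for Entpd1.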
